A study of Mus musculus with 4 samples.

Results

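The effect of losing Ggpps on the miRNA cargo of hepatocyte extracellular vesicles (EVs) in obesity was examined with 2 of the 4 arrays of the series. HFD-LKO EV came from primary hepatocytes of Ggpps knockout mice on a high-fat diet (LKO, which the study describes as liver-specific), and HFD-EV from those of WT mice on the same diet. Both groups were B6 males, 20 weeks old and 12 weeks on the diet, whose hepatocytes were cultured for 48 h, and each array held a pool from 4 animals. The knockout joined a floxed Ggpps allele to Mx1-Cre, which injected polyinosinic-polycytidylic acid switches on. This promoter is not restricted to hepatocytes, and the methods do not state whether the WT mice were injected. The other pair, Chow-LKO EV and Chow-EV, came from LKO and WT males of the same age on chow. Of 1881 mouse miRNAs on the array, 1354 were below background in both HFD-LKO EV and HFD-EV. Described here are 521, of which 474 had a ratio and 47 a bound. A miRNA above background on 1 array only was left out where its scaled signal was below the value it was set against. Over all 4 arrays, 542 were above background. Signals are given as measured, and each ratio was taken after both arrays had been scaled to their 75th percentiles. With 1 array in each group, no test between groups was possible. Values after ± are SDs of a miRNA's spots on its array. They measure the noise of the slide, and nothing here measures how much animals, cultures or EV isolations vary. Increase and decrease mean a higher or lower signal in HFD-LKO EV, without a test.

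Ggpps encodes geranylgeranyl diphosphate synthase, which makes the isoprenoid that anchors Rab GTPases to membranes. Rab27A, one of these GTPases, helps multivesicular bodies to dock and release EVs. The EVs carry miRNAs, short RNAs that repress mRNAs paired to their seed, which is bases 2 to 8 of the miRNA. The arrays carry no probe for Ggpps, so its loss could not be checked in these data. The hepatocyte origin could be checked. All 7 hepatocyte-enriched miRNAs listed were above background on both arrays, and miR-122-5p, which makes up much of the miRNA of a hepatocyte, was the brightest on each. Its background-subtracted signal was 86069 ± 2163 in HFD-LKO EV, against 91412 ± 2587 in HFD-EV, in arbitrary units. The 6 markers of bile duct and other epithelial cells and the 4 markers of skeletal muscle were below background on both arrays, as were 5 of 6 markers of stellate and other mesenchymal cells. The epithelial list held 3p arms only, and miR-141-5p was above background on both arrays and miR-200a-5p in HFD-EV. Both endothelial markers, 3 of 6 leukocyte and Kupffer cell markers and 2 of 4 erythroid markers were also above background on both arrays.

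The mature sequences of the miRNAs on which the results turned are given with the seed in capitals, from RefSeq (GRCm38.p6), which matched 404 of the 474 miRNAs with a ratio. The let-7 miRNAs share the seed GAGGUAG and are ordered from the largest decrease in HFD-LKO EV to the highest ratio, so that the differences outside the seed can be read against the values.
let-7e-5p: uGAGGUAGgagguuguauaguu
let-7f-5p: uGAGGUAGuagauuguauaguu
let-7d-5p: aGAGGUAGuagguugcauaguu
let-7a-5p: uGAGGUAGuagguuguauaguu
miR-98-5p: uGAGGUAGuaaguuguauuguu
let-7c-5p: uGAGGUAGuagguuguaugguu
let-7i-5p: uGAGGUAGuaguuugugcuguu
let-7b-5p: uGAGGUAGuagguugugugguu
let-7g-5p: uGAGGUAGuaguuuguacaguu
miR-99b-5p and miR-125a-5p, whose genes lie beside that of let-7e, are set with the miRNAs that share their seeds.
miR-99b-5p: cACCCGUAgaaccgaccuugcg
miR-99a-5p: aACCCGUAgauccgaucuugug
miR-100-5p: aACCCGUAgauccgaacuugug
miR-125a-5p: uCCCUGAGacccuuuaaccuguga
miR-125b-5p: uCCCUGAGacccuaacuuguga
The remaining decreases shown are the 3 strongest on the array, a neighbour of the first on the X chromosome, and miR-690.
miR-450a-2-3p: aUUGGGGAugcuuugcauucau
miR-322-5p: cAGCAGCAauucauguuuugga
miR-6392-3p: gACGCAGGuuugccggguccucu
miR-5132-3p: cUGAUGUUccccaucccgcag
miR-690: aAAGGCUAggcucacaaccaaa
The increases shown are the largest one and others with a bright signal.
miR-135a-1-3p: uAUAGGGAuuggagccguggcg
miR-8090: gAAGCGCAguggaggucugu
miR-2137: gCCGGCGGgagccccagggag
miR-494-3p: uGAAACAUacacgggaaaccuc
miR-6769b-5p: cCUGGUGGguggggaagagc
None of the 5 increases shares a seed with another of them.

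Of the 521 miRNAs, 41 (7.87%) had a signal in HFD-LKO EV at least 2-fold that in HFD-EV, and 39 (7.49%) were lower by this factor. A ratio was measured for 35 of those higher and 31 of those lower, and each was beyond 2 spot SDs. The other 6 and 8 were above background on only 1 of the arrays and have a bound. Most of the cargo differed little, with 311 of 474 ratios (65.6%) within 1.5-fold. The log2 ratios lay between -2.72 and 2.45 around a median of -0.06, and the middle 50% spanned -0.47 to 0.27. Of the ratios, 263 (55.5%) were below 0 and 211 (44.5%) above it. Just inside the 2-fold limit were miR-146a-5p at 1.02 and miR-103-3p at -1.01, and just outside it were miR-7036a-5p at 0.97 and miR-6946-5p at -0.97. The median signal of the 35 higher miRNAs was 221.6 in HFD-LKO EV, against 106.4 in HFD-EV, and that of the 31 lower miRNAs was 62.7 in HFD-LKO EV, against 217.8 in HFD-EV. The array of HFD-LKO EV had 508 miRNAs above background, against 493 in HFD-EV. The lowest signal above background was 13.8 in HFD-LKO EV, against 19.9 in HFD-EV, and no spot was saturated. The 10 brightest miRNAs gave 54.2% of the summed signal in HFD-LKO EV, against 54.0% in HFD-EV.

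**Figure D1:**
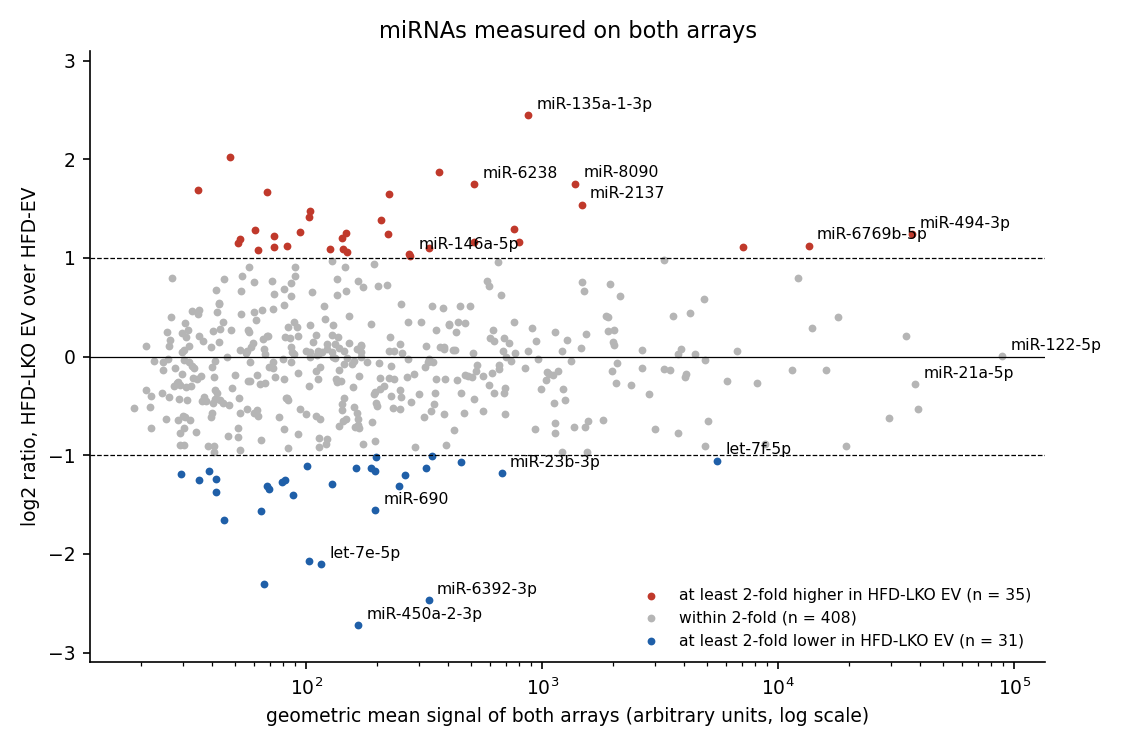
Each point is 1 of the 474 miRNAs above background on both arrays, with the geometric mean of its signals in HFD-LKO EV and HFD-EV on a log axis (arbitrary units) and its log2 ratio, HFD-LKO EV over HFD-EV, on the other. Red points (n = 35) are at least 2-fold higher and blue points (n = 31) at least 2-fold lower in HFD-LKO EV; miR-122-5p, the brightest, lies at 0.00, while the bright miR-494-3p lies at 1.24.

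The largest decrease was that of miR-450a-2-3p, from Mir450-2 on the X chromosome (GRCm38.p6, chrX:53048299-53048367). Its signal was 62.7 ± 6.08 in HFD-LKO EV, against 440.0 ± 16.7 in HFD-EV, a log2 ratio of -2.72 ± 0.15 or 6.60-fold. Only 2 of its 4 probes were above background, and those gave -2.78 and -2.50. In the authors' normalised signals its ratio was -0.98, short of 2-fold. The gene lies in a cluster with those of miR-322 and miR-503, which restrain the cell cycle. miR-322-5p had a signal of 51.1 ± 6.02 in HFD-LKO EV, against 129 ± 5.74 in HFD-EV (-1.25 ± 0.18 as log2 ratio). miR-503-5p was above background in HFD-EV only and was at least 1.66-fold lower in HFD-LKO EV. All 3 members of this cluster that could be measured were thus lower, and the other 10 of the 13 listed were below background on both arrays.

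miR-6392-3p, from Mir6392 on chromosome 15, was second, with a signal of 136 ± 7.81 in HFD-LKO EV, against 801 ± 38.4 in HFD-EV and a log2 ratio of -2.47 ± 0.11. It was also the brightest in HFD-EV of the 15 largest decreases. miR-5132-3p, from Mir5132 on the X chromosome, had a signal of 29.0 ± 4.33 in HFD-LKO EV, against 152 ± 10.4 in HFD-EV, a log2 ratio of -2.30 ± 0.24. miR-690, from Mir690 on chromosome 16, had a signal of 111 ± 5.90 in HFD-LKO EV, against 346 ± 7.53 in HFD-EV, a log2 ratio of -1.56 ± 0.08. For each of these 3 the signals of the groups were apart by many times the spot SD. The 15 largest decreases also held miR-3474 (-1.66 ± 0.26), miR-1969 (-1.40 ± 0.27), miR-6343 (-1.34 ± 0.16), miR-1931 (-1.31 ± 0.13), miR-7687-5p (-1.29 ± 0.11) and miR-7016-5p (-1.28 ± 0.19). miR-141-5p, from the miR-200 family of epithelial miRNAs, was at -2.07 ± 0.22 by its spots, but at 0.01 with the total gene signal that Feature Extraction computes, and 1 of its 4 probes was above background in HFD-LKO EV.

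**Figure D2:**
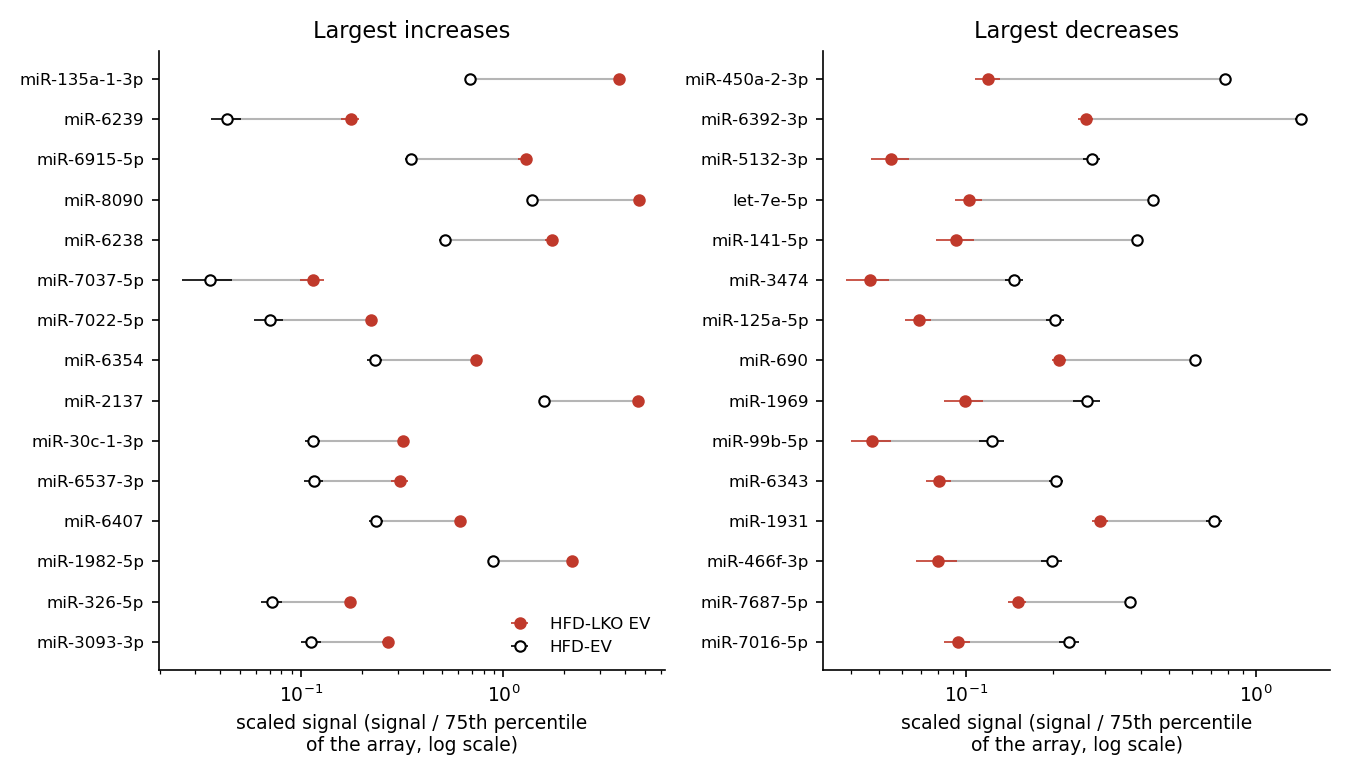
Signals of the 15 miRNAs with the largest increases (left) and the 15 with the largest decreases (right), scaled to the array's 75th percentile and drawn on a log axis, with filled red circles for HFD-LKO EV, open circles for HFD-EV and bars for the SD between spots. In none of the 30 do the bars of the groups meet. The 30 were chosen for large ratios well beyond the spot SD, so this gap follows largely from that choice.

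let-7e-5p, a let-7 miRNA, had a signal of 54.1 ± 5.66 in HFD-LKO EV, against 248 ± 9.88 in HFD-EV, 4.31-fold lower. let-7 miRNAs hold back growth and proliferation genes. Each of its 2 probes was above background throughout, with log2 ratios of -2.30 and -1.98. Its gene, Mirlet7e (chr17:17830352-17830444), lies between Mir99b (chr17:17830194-17830253) and Mir125a (chr17:17830812-17830879), and RefSeq places all 3 on the plus strand. Both neighbours were lower as well. miR-99b-5p had a signal of 25.0 ± 3.96 in HFD-LKO EV, against 68.9 ± 6.66 in HFD-EV (-1.37 ± 0.27), and miR-125a-5p one of 36.1 ± 3.71 in HFD-LKO EV, against 114 ± 8.45 in HFD-EV (-1.57 ± 0.18). Of the opposite arms, miR-99b-3p was at -0.62 ± 0.20, with all 4 probes below 0. miR-125a-3p was at -0.47 ± 0.05, but its direction was not settled, since the brightest of its 4 probes gave -0.93, the others gave 0.51 to 0.96, and the authors' normalised signals gave 0.52. Counted with it, the 5 measured miRNAs of the cluster were below 0 and 3 of them at least 2-fold lower. Over all miRNAs, 263 of 474 ratios (55.5%) were below 0 and 39 of 521 (7.49%) were at least 2-fold lower. The cluster's median was -1.37, against -0.41 with normexp and an offset of 50. That median is the value of miR-99b-5p, which, like miR-125a-5p, had 1 of 2 probes above background in HFD-LKO EV. This cluster had the lowest median among the 13 gene clusters, made of genes within 10 kb of each other, that had 3 or more measured miRNAs. The chromosome 11 cluster of miR-497a and miR-195a was next, with a median of -0.61 over 3 miRNAs. miR-195a-5p and miR-497a-5p of this cluster were each read by 1 of 2 probes, and with the total gene signal they were above 0, at 0.25 and 1.20.

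Over the let-7 family, 8 of 9 miRNAs measured were below 0, each by more than 2 spot SDs, and the median was -0.57. Depending on the scaling, 7 to 9 were below 0. Over all miRNAs, 172 of 474 (36.3%) were lower by more than 2 spot SDs. The let-7 share of all signal was 3.25% in HFD-LKO EV, against 4.73% in HFD-EV. The family was not uniform. let-7f-5p had a signal of 3700.3 ± 103 in HFD-LKO EV, against 8167 ± 328 in HFD-EV (-1.05 ± 0.07), let-7d-5p was at -0.97 ± 0.05 and let-7a-5p at -0.91 ± 0.03. These 3 and let-7e-5p end in the bases AUAGUU, and their ratios lay between -2.11 and -0.91. The other 5 end otherwise and lay between -0.57 (miR-98-5p) and 0.07 (let-7g-5p), so the groups did not overlap. No other of the 1679 mature mouse miRNAs in the RefSeq table has that ending. On chow, which used other arrays, the ratios of these 4 lay between -2.01 and -0.79 and those of the other 5 between -0.60 and -0.03. This split was chosen after the values were seen. The members differ by few bases, so signals of near-identical let-7 miRNAs may include each other's RNA, and cross-hybridisation was not tested.

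The miR-99 and miR-100 seed ACCCGUA had the lowest median of the 12 seeds shared by 3 or more measured miRNAs, at -0.94, followed by the let-7 seed at -0.57 and the miR-125 seed CCCUGAG at -0.55. miR-99a-5p had a signal of 203 ± 8.16 in HFD-LKO EV, against 408 ± 15.4 in HFD-EV (-0.92 ± 0.08), and miR-100-5p one of 36.8 ± 4.42 in HFD-LKO EV, against 75.1 ± 6.19 in HFD-EV (-0.94 ± 0.21). miR-100-5p, which sets this seed's median, was read by 1 of its 2 probes and was at -0.22 with the total gene signal. miR-125b-5p was at -0.55 ± 0.09, and miR-6394, which has the same seed and comes from another gene, went the other way at 0.79. Together with let-7c-5p, the miRNAs encoded beside or as paralogs of these genes (miR-99a, miR-100 and miR-125b) were all below 0, with a median of -0.73 over 4. The seed with the highest median, AGGAGAG, was at 0.10.

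**Figure D3:**
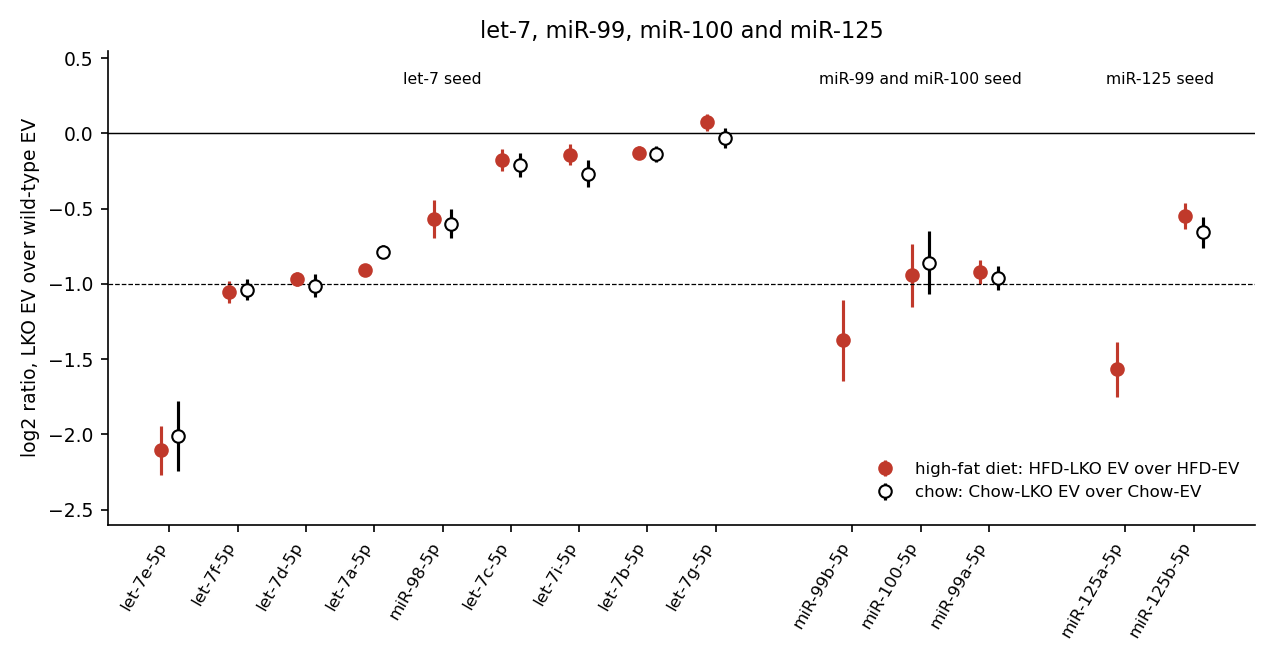
log2 ratios of LKO over wild-type EVs for the miRNAs that carry the let-7, miR-99 and miR-100, and miR-125 seeds, on the high-fat diet (HFD-LKO EV over HFD-EV, filled) and on chow (Chow-LKO EV over Chow-EV, open), with bars for the SD between spots. let-7e-5p, let-7f-5p, let-7d-5p and let-7a-5p lie at or below -0.91 on the high-fat diet, let-7c-5p, let-7i-5p, let-7b-5p and let-7g-5p lie near 0, and no open circle is drawn for miR-99b-5p and miR-125a-5p, which were above background in only 1 chow group.

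The largest increase was that of miR-135a-1-3p, from Mir135a-1 on chromosome 9 (chr9:106154124-106154213). Its signal was 1975 ± 51.6 in HFD-LKO EV, against 385 ± 22.0 in HFD-EV, a log2 ratio of 2.45 ± 0.09 or 5.46-fold. All 4 probes were above background on both arrays and gave 2.08 to 2.59. It was followed by miR-6239 (2.02 ± 0.29), miR-6915-5p (1.87 ± 0.15), miR-8090 (1.75 ± 0.08) and miR-6238 (1.75 ± 0.15). In HFD-EV, miR-6239 was read by 1 of its 2 probes. miR-8090 had a signal of 2457 ± 94.5 in HFD-LKO EV, against 775 ± 29.3 in HFD-EV, and miR-6238 one of 915 ± 67.5 in HFD-LKO EV, against 289.9 ± 20.2 in HFD-EV. These are miRNAs with high registry numbers, for which little function is known. Most measured miRNAs had such numbers, with 275 ratios and 23 bounds at 1000 or over, against 191 ratios and 24 bounds under 1000. Of the 41 higher miRNAs, 29 were numbered 1000 or over and 12 under 1000. Of the 39 lower ones, 21 were numbered 1000 or over and 16 under 1000, and the remaining 2 were let-7 miRNAs. The class medians were -0.02 over 275 with high numbers and -0.14 over 191 with low ones, and the first of these turned positive under most scalings, up to 0.08. miR-2137, from the X chromosome, had a signal of 2434 ± 69.3 in HFD-LKO EV, against 889 ± 29.5 in HFD-EV (1.54 ± 0.06). The 15 largest increases also held miR-7037-5p (1.69 ± 0.44), miR-7022-5p (1.66 ± 0.25), miR-6354 (1.65 ± 0.14), miR-6407 (1.38 ± 0.14), miR-1982-5p (1.30 ± 0.07), miR-326-5p (1.28 ± 0.19) and miR-3093-3p (1.26 ± 0.19). The 2 probes of miR-3093-3p, both above background on both arrays, went opposite ways, at -0.32 and 1.71. miR-30c-1-3p was at 1.47 ± 0.15, measured by 1 of its 4 probes, and at 0.03 in the authors' normalised signals. miR-6537-3p was at 1.42 ± 0.21 and reversed to -0.34 with the total gene signal.

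Among the 5 brightest miRNAs of HFD-LKO EV, miR-494-3p was the only one past 2-fold. Its gene, Mir494 (chr12:109715318-109715402), lies in the imprinted Dlk1-Dio3 region. The signal was 54747 ± 1052 in HFD-LKO EV, against 24635 ± 606 in HFD-EV, a log2 ratio of 1.24 ± 0.05, and both probes gave similar values (1.26 and 1.20). It ranked 2 by signal in HFD-LKO EV and 7 in HFD-EV. No other of the 9 measured miRNAs of the region was past 2-fold, the median was -0.14, and 6 of them were below 0. As a share of all signal, the region gave 9.36% in HFD-LKO EV, against 4.14% in HFD-EV, and miR-494-3p alone gave 8.86% in HFD-LKO EV, against 3.77% in HFD-EV. miR-6769b-5p and miR-5622-3p, named here for their brightness after their values were seen, had signals of 19271 ± 496 in HFD-LKO EV, against 9398 ± 196 in HFD-EV (1.12 ± 0.05) and of 10093 ± 214 in HFD-LKO EV, against 4965 ± 89.7 in HFD-EV (1.11 ± 0.04). Of the 5 brightest, the rest were within 1.5-fold. miR-21a-5p was at -0.28 ± 0.05, miR-7042-5p at 0.21 ± 0.03 and miR-8117 at -0.53 ± 0.04. The probes of miR-8117 disagreed, at 0.03 and -0.81, and with quantile normalisation it was at -0.93, beyond 1.5-fold.

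A bound was given where a miRNA was above background on 1 array only, by setting its scaled signal against the larger of the lowest signal above background and the measured signal on the other array. Where its scaled signal was the smaller, no bound was given. miR-3057-5p was at least 4.82-fold higher in HFD-LKO EV (90.5 in HFD-LKO EV, against 19.1 in HFD-EV), miR-712-3p at least 2.78-fold, miR-130b-3p at least 2.53-fold and miR-5627-3p at least 2.25-fold. miR-130b-3p represses Pparg, the master regulator of adipocytes. miR-34b-5p and miR-34c-5p, which p53 induces and which come from 1 transcript, were at least 2.03-fold and 1.97-fold higher, while miR-34a-5p was at 0.16 ± 0.06. In the other direction, miR-3061-5p was at least 3.90-fold lower in HFD-LKO EV (11.1 in HFD-LKO EV, against 57.1 in HFD-EV), and miR-3069-3p, miR-7015-5p, miR-455-5p and miR-574-3p were at least 3.21-fold, 2.65-fold, 2.58-fold and 2.54-fold lower.

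The miR-15 and miR-16 family and the miR-17-92 and paralogous clusters had medians below 0, by different amounts. Over all miRNAs, 263 of 474 ratios (55.5%) were below 0. The 6 miRNAs of the miR-15 and miR-16 family, which restrain the cell cycle, had a median of -0.38, and miR-322-5p was their lowest. All 6 were below 0, but 3 of them not under every alternative. miR-16-5p, at -0.04 ± 0.05, turned positive under some scalings, and miR-195a-5p (-0.61 ± 0.24) and miR-497a-5p (-0.34 ± 0.35) did so with the total gene signal, as given above. In the miR-17-92 and paralogous clusters, which promote proliferation, 10 of 11 were below 0 but within a narrow range of -0.23 to 0.13, with a median of -0.16. All 3 miR-29 miRNAs, which limit collagen expression, were below 0, and miR-29b-3p was the lowest at -0.71 ± 0.07. miR-23b-3p had a signal of 433 ± 13.9 in HFD-LKO EV, against 1045 ± 35.0 in HFD-EV (-1.18 ± 0.07), whereas miR-23a-3p, which has the same seed and comes from another cluster, was at -0.17 ± 0.06. miR-27b-3p, encoded beside miR-23b, was at -0.29 ± 0.07. The miR-30 family stayed close to 0, with a median of 0.03 that turned negative without scaling (-0.06), with quantile normalisation (-0.04) and with the total gene signal (-0.02).

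Of the metabolic lists, the 1 for insulin and glucose had all 5 measured members below 0, with a median of -0.58. For scale, 263 of all 474 ratios (55.5%) were below 0, and 116 of the 191 for miRNAs numbered under 1000. miR-103-3p, which in mouse represses caveolin-1, a stabiliser of the insulin receptor, had a signal of 233 ± 10.8 in HFD-LKO EV, against 498 ± 17.8 in HFD-EV (-1.01 ± 0.08), and miR-107-3p, which differs from it near its end, one of 552 ± 17.4 in HFD-LKO EV, against 877 ± 23.9 in HFD-EV (-0.58 ± 0.06). miR-26a-5p was at -0.65 ± 0.06, miR-802-5p at -0.53 ± 0.16 and miR-29a-3p at -0.25 ± 0.07. Among miRNAs of adipocyte differentiation, 8 of 9 with a ratio were below 0, with a median of -0.29. The 10th measured member, miR-130b-3p, was at least 2.53-fold higher. The list shares miR-103-3p and miR-107-3p with the insulin list. miR-31-5p was at -0.74 ± 0.08, and miR-210-3p, which hypoxia induces, at -0.57 ± 0.07. On chow, miR-31-5p was at -0.80 ± 0.09, whereas miR-210-3p had the opposite sign, at 0.15 ± 0.10. The list for lipid and cholesterol metabolism had no common direction, with 6 of 11 above 0 and a median of 0.00 that turned negative without scaling (-0.09). Its highest members were miR-370-3p at 0.74 ± 0.05 and miR-223-3p, and its lowest was miR-96-5p at -0.73 ± 0.31. The study singled out let-7e-5p, miR-31-5p, miR-210-3p, miR-23b-3p and miR-690 on arrays of this series, so their direction here is not independent evidence.

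Some miRNAs of inflammation and blood cells were higher. miR-146a-5p, which NF-kB induces and which damps inflammatory signalling, had a signal of 382 ± 12.9 in HFD-LKO EV, against 199.8 ± 10.3 in HFD-EV (1.02 ± 0.09). miR-155-5p, a pro-inflammatory miRNA of activated immune cells, had a signal of 294 ± 10.8 in HFD-LKO EV, against 216 ± 11.6 in HFD-EV (0.54 ± 0.09). miR-21a-5p, by far the brightest of the inflammatory list, was lower, as given above. Of the markers of leukocytes and Kupffer cells, 3 of 6 were measured, and their summed signal was 649 in HFD-LKO EV, against 519 in HFD-EV. The myeloid miR-223-3p was at 0.73 ± 0.09 and miR-155-5p higher as well, whereas miR-142a-3p, found in all blood cell lineages, was at -0.59 ± 0.16. The other 3 markers (miR-142a-5p, miR-223-5p and miR-150-5p) were below background on both arrays. miR-451a, the defining miRNA of red cells, had a signal of 88.2 ± 5.32 in HFD-LKO EV, against 44.3 ± 5.25 in HFD-EV (1.08 ± 0.19), while miR-486a-5p was at -0.06 ± 0.26 and both arms of miR-144 were below background. Both endothelial markers were below 0, with miR-126a-3p at -0.44 ± 0.04 and miR-126a-5p at -0.25 ± 0.23. In pooled EVs, a different number of EVs from a cell type and a different miRNA content per EV cannot be told apart, and the part of other cell types in these differences was not tested.

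Hepatocyte-enriched miRNAs were lower or near 0. miR-122-5p was at 0.00 ± 0.05 and miR-192-5p at 0.05 ± 0.06, each within its spot SD of 0. miR-194-5p, cut from transcripts that also hold miR-192 or miR-215, had a signal of 1408 ± 24.4 in HFD-LKO EV, against 2339 ± 38.9 in HFD-EV (-0.64 ± 0.03), and miR-148a-3p was at -0.38 ± 0.04. The median of the 7 was -0.38, with 5 below 0. As a share of all signal, the list gave 15.7% in HFD-LKO EV, against 16.0% in HFD-EV, and the number below 0 ranged from 4 to 7 over the scalings.

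**Figure D4:**
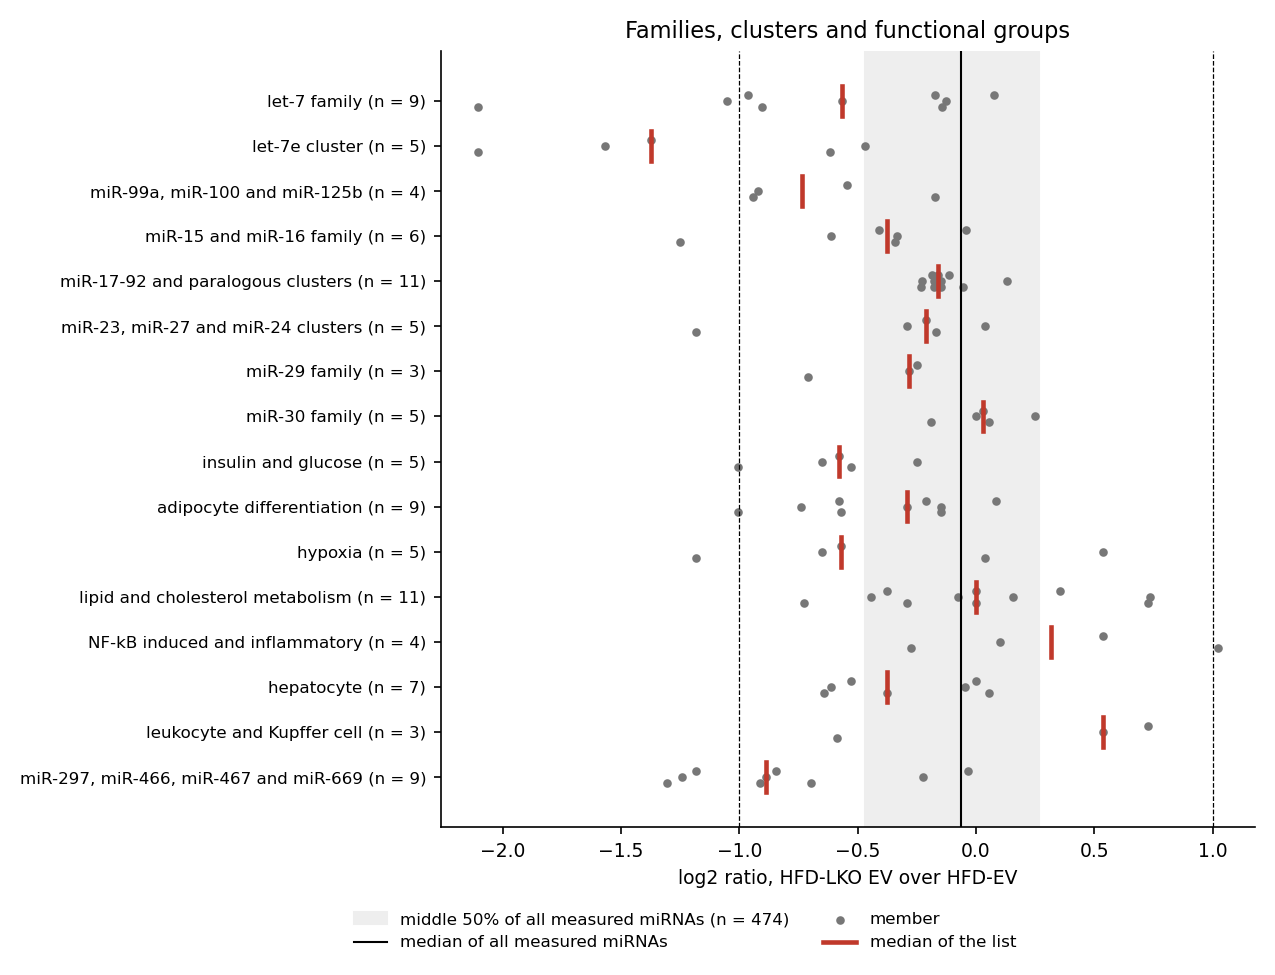
log2 ratios, HFD-LKO EV over HFD-EV, of the measured members (grey points) of 16 families, clusters and lists, with the list's median as a red bar, the median of all 474 miRNAs as a black line and their middle 50% shaded. The let-7e cluster has the lowest median of the lists drawn (-1.37) and leukocyte and Kupffer cell markers the highest (0.54, from 3 miRNAs).

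The miRNAs named miR-297, miR-466, miR-467 and miR-669 come in mouse mainly from a repeated array within an intron of Sfmbt2, and many are nearly alike. Of 61 on the array, 9 had a ratio, all 9 were below 0 (8 of 9 under some scalings) and 3 were at least 2-fold lower, with a median of -0.89, against -0.32 on chow. Over all miRNAs, 263 of 474 ratios (55.5%) were below 0 and 39 of 521 (7.49%) were at least 2-fold lower. With the total gene signal the group's median was -0.08, so the size of its decrease, though not its sign, depended on the signal used. The lowest were miR-466f-3p (-1.31 ± 0.26, but 1.68 with the total gene signal), miR-466i-3p (-1.24 ± 0.30) and miR-669c-3p (-1.19 ± 0.37). Probes for such near-identical miRNAs can read each other, so they may not be separate measurements. The 5p arms numbered miR-6896 to miR-7094, a range rich in mirtrons, which are miRNAs cut from short introns, showed no common direction, with 47 of 95 above 0 and a median of -0.02 whose sign depended on the scaling. The 29 measured miRNAs with genes on the X chromosome had a median of -0.04, also of either sign by the scaling, although miR-450a-2-3p, miR-5132-3p and miR-322-5p among them were strongly lower and miR-2137 strongly higher.

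Base composition went with the ratios only weakly. With the miRNAs in 4 bins from the lowest to the highest GC content, the medians were -0.19, -0.03, -0.05 and 0.05, with a Spearman correlation of 0.17 across 404 miRNAs, which share both arrays and are not independent. The motif GGAG, studied as a sorting signal for EV miRNAs, was searched on the miRNA strand and occurred in 132 of the 404 (32.7%), against 14.2% of the 1679 mature miRNAs of the RefSeq table. Its carriers had a median of 0.04 and the other 272 one of -0.14. Of the higher miRNAs with a sequence, 14 of 31 (45.2%) held GGAG, as did 10 of the 26 lower (38.5%), against 32.7% of all 404. These counts are small, and the share among the lower lay near that over all 404. The 404 were selected by signal on arrays that held no cellular RNA, so sorting into EVs was not tested.

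Both arms of a hairpin come from 1 precursor, and 30 hairpins had both measured. The arms had the same sign in 18, with a median difference of 0.21 on the log2 scale. Close pairs were those of miR-21a (-0.28 and -0.27 for its 5p and 3p arms) and miR-3102 (0.76 and 0.82). The widest gap was that of miR-5132, whose 3p arm was strongly lower while its 5p arm was at 0.20, followed by miR-7684, with 0.45 for the 5p arm and -1.25 for the 3p arm. Of the 66 miRNAs with a ratio past 2-fold, 38 had their other arm on the array. That arm had a ratio in 5 of them, past 2-fold in 0 of these 5, and it was below background on both arrays in 33.

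The same genotype contrast on chow rests on the other pair of arrays. There, 15 of 514 miRNAs (2.92%) had a signal in Chow-LKO EV at least 2-fold that in Chow-EV, and 28 (5.45%) were lower by this factor. The middle 50% of the log2 ratios was 0.73 wide on the high-fat diet and 0.65 on chow. All 35 miRNAs higher on the high-fat diet had a ratio on chow, and 32 of these were above 0 and 10 at least 2-fold higher. Their median was 1.24 on the high-fat diet and 0.75 on chow. Of the 31 lower, 25 had a ratio on chow, all 25 were below 0 and 10 were at least 2-fold lower, with medians of -1.25 on the high-fat diet and -0.93 on chow. Over all 443 miRNAs with a ratio on both diets, 359 had the same sign on both. Of all 463 ratios on chow, 285 were below 0. The 35 and the 31 were chosen for a large ratio on the high-fat diet, so a smaller median on chow is set in part by that choice. Single miRNAs differed from these medians. miR-6392-3p was at -1.18 ± 0.13 on chow (222 in Chow-LKO EV, against 415 in Chow-EV) and miR-135a-1-3p at 1.30 ± 0.07, each weaker than on the high-fat diet. miR-6238 was at 0.25 ± 0.20 on chow (399 in Chow-LKO EV, against 276 in Chow-EV), whereas let-7e-5p and miR-146a-5p gave nearly the same ratio on both diets. Whether any ratio differed between the diets was not tested, since each group is 1 array.

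**Figure D5:**
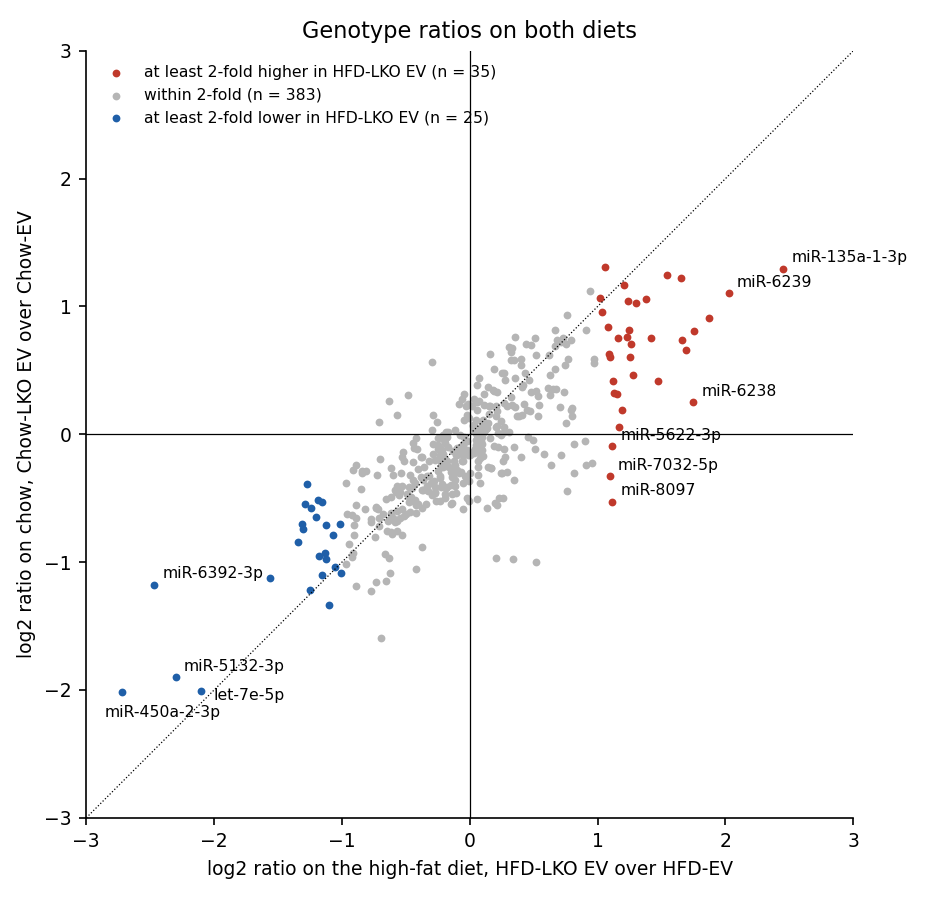
Each point is 1 of 443 miRNAs with a ratio on both diets, with the log2 ratio of HFD-LKO EV over HFD-EV on the horizontal axis, that of Chow-LKO EV over Chow-EV on the vertical axis and a dotted line where they are equal. All 25 blue points (at least 2-fold lower in HFD-LKO EV) lie below 0 on chow, and of the 35 red points (at least 2-fold higher) miR-5622-3p, miR-7032-5p and miR-8097 lie below 0 on chow. Of all 443 points, 359 have the same sign on both diets.

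For miRNAs with several probes above background on both arrays, the probes pointed the same way in 325 of 374 (86.9%), in 27 of 29 that were at least 2-fold higher and in 21 of 21 that were at least 2-fold lower. The number of miRNAs past 2-fold depended on the background correction. With normexp and an offset of 50, which shrinks the ratios of dim miRNAs, 10 were higher and 5 lower, and in the authors' normalised signals 15 were higher and 6 lower. With normexp, let-7e-5p was at -1.05, miR-5132-3p at -0.85, miR-125a-5p at -0.56 and miR-99b-5p at -0.36. Increases shrank too, with miR-6239 at 0.60, miR-7022-5p at 0.63, miR-326-5p at 0.45 and miR-7037-5p at 0.42, while miR-135a-1-3p was at 1.89.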

How the data were processed

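EV RNA was hybridised to 1-colour (Cy3) Agilent mouse miRNA arrays, 1 for each of 4 groups, each from a pool of 4 animals. The intensity values in the deposited spot files come from the authors' scans through Agilent Feature Extraction 10.7.1.1. Per the file headers background was subtracted, and signals are not normalised across arrays. The log2 values deposited by the authors are normalised signals, and their normalisation is not given in the sources used here. The methods name U6 as the normaliser, but no probe has that name. The authors' tables also hold ratio values (fold changes), which were not used. In their combined table, 1 column, that for HFD-EV, is a fold change times the Chow-EV log2 value and was not used.

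Control spots and outlier spots (2321 in HFD-LKO EV and 2473 in HFD-EV, of 56430 miRNA spots) were left out, spots were averaged per probe and probes summed per miRNA. A miRNA was above background where at least 1 probe had most of its spots marked so. Each array was then scaled to its 75th percentile over the 443 miRNAs that passed on all 4 arrays (527.7 in HFD-LKO EV and 561.0 in HFD-EV). The SD between spots was carried to the log2 ratio, with a median of 0.12. With 1 array in a group its number limits the precision, no test was made, and a 2-fold difference was the limit for counting. The steps were tested on simulated data.

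Named miRNAs are the 15 largest increases and 15 largest decreases beyond 2 spot SDs, the 5 largest bounds higher and lower, list members, the miRNAs the study names, the 5 brightest miRNAs of HFD-LKO EV, and the 3 highest and lowest seed groups and gene clusters. The members and lists were chosen with earlier results of these data known. Sequences and positions are from RefSeq (GRCm38.p6), which matched 1608 of 1881 miRNAs and 446 of the 521. Alternatives were tried for scaling, background correction, probe summary, filter, detection call, fold and source of signals. Scaling by the control probes dmr_3, dmr_6, dmr_285 and dmr_31a was chosen after seeing the data. Python 3.11.15, numpy 2.4.6, pandas 2.3.3, scipy 1.17.1, matplotlib 3.10.9, R 4.3.3 and limma 3.58.1 were used.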

Additional observations from a re-analysis of the deposited data

Results flagged for a closer look

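Of the 35 miRNAs with a ratio at least 2-fold higher in HFD-LKO EV than in HFD-EV, 3 went the opposite way on chow. Signals are as measured and log2 ratios are after scaling. miR-7032-5p was at 1.09 (202 in HFD-LKO EV, against 101 in HFD-EV) on the high-fat diet and at -0.33 on chow (145 in Chow-LKO EV, against 150.2 in Chow-EV). miR-5622-3p was at 1.11 on the high-fat diet and at -0.09 on chow (9244 in Chow-LKO EV, against 8164 in Chow-EV). miR-8097 was at 1.11 (105 in HFD-LKO EV, against 51.3 in HFD-EV) on the high-fat diet and at -0.53 on chow (107 in Chow-LKO EV, against 127 in Chow-EV). The difference between the diets was not tested, since each group is 1 array.

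Control probes outside the miRNA measurement also differed between the groups. The control named hur_6, read by 3 probes, had a signal of 2074 ± 299 in HFD-LKO EV, against 8008 ± 702 in HFD-EV, a scaled log2 ratio of -1.86, and was at -1.48 on chow. The control named hur_2 had a signal of 80395 ± 3751 in HFD-LKO EV, against 56975 ± 2913 in HFD-EV, a scaled log2 ratio of 0.59, and was at -0.02 on chow. What these probes bind is not given in the sources used here. The controls dmr_285, dmr_3, dmr_31a and dmr_6 lay between -0.11 and 0.02.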

How the results depend on the processing

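Of the 30 largest increases and decreases, 27 kept their sign under every alternative that gave a value, and the exceptions under Feature Extraction's total gene signal were miR-141-5p at 0.0090, miR-466f-3p at 1.68 and miR-6537-3p at -0.34. The numbers at least 2-fold higher and lower were 10 and 5 with normexp and an offset of 50, and 15 and 6 in the authors' normalised signals, of which 14 and 6 were among the 41 and 39. A signal over 30 on both arrays left 33 higher and 24 lower of 417 miRNAs, and a limit of 1.5-fold gave 83 higher and 105 lower. Under the other alternatives the counts lay between 35 and 58 higher and between 33 and 47 lower. Scaling by the dmr control probes, chosen after seeing the data, moved the median of all miRNAs from -0.06 to 0.04 and gave 51 higher and 33 lower. The medians of the miR-30, miR-130 and miR-301, miR-221 and miR-222, and lipid lists changed sign under at least 1 alternative, as did those of miR-6335 to miR-6419, of the miR-6896 to miR-7094 5p arms, of the X chromosome and of miRNAs numbered 1000 or over. Those of the other lists with a measured member kept theirs. Over all scalings, between 7 and 9 of the 9 let-7 miRNAs were below 0, with medians from -0.66 to -0.39. No paired analysis was possible because each group is 1 array. Dim miRNAs carry the least certain ratios, since the median spot SD was 0.12 overall but 0.44 for miR-7037-5p, whose signal was 19.9 in HFD-EV.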

Other observations

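Gene clusters at the upper end had ratios above 0, with 1 exception. All 3 measured miRNAs of the Mir3102 hairpin on chromosome 7 were above 0, with a median of 0.76 and a range of 0.03 to 0.82. All 4 measured 5p arms of the Mir290 to Mir295 cluster on the same chromosome, which in mouse is active in embryonic stem cells, lay between 0.30 and 0.54 with a median of 0.49. None of them was beyond 2 spot SDs (miR-290a-5p 0.30 ± 0.21, miR-291a-5p 0.53 ± 0.31, miR-291b-5p 0.54 ± 0.37, miR-292a-5p 0.45 ± 0.29). In HFD-EV, miR-291a-5p, miR-291b-5p and miR-292a-5p were each read by 1 of 4 probes. Over all miRNAs, 211 of 474 ratios (44.5%) were above 0. The X-linked cluster of miR-532, miR-188, miR-362 and miR-500 was measured by 3 miRNAs, which lay between 0.05 and 0.61. The exception was the X-linked pair of Mir5132 and Mir718, which held values from -2.30 to 0.43.

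Some hairpins outside the lists had arms of opposite direction. For miR-345 the 5p arm was at -0.61 and the 3p arm at 0.67, for miR-193a they were at -0.81 and 0.09, and for miR-22 at -0.82 and 0.03.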
